A study of Mus musculus with 12 samples.

Results

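The genes described here are 36 that encode the machinery of ribosome biogenesis and abundant proteins of the nucleolus, chosen by name from a list. That list, and the further lists read below, were chosen with earlier results of these data known. All 36 were found among the 49315 genes of the count table, and all 36 were among the 18161 genes tested. They were measured by bulk RNA sequencing of femoral shafts, the cortical bone of the thigh, from male mice aged 12 weeks. The lowest count of any of the 36 in any library was 161, so none of them entered the test only through a group in which it was high.

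The libraries fell into 4 groups of 3, written here as KO ethanol, KO PBS, WT ethanol and WT PBS. KO mice were homozygous for a catalase knockout (Cat -/-) and WT mice were Cat +/+. Catalase is the peroxisomal enzyme that removes hydrogen peroxide and can oxidise ethanol. The ethanol groups were given ethanol by gavage on 4 consecutive days, at 3, 3, 4 and 4.5 g per kg of body weight from a 31.5% solution by volume, and the PBS groups received the same volume of phosphate-buffered saline. Tissue was taken 6 hours after the last gavage, the marrow was spun out of the femurs, and each library was a pool of shaft RNA from 2 mice. The spread between libraries is therefore a spread between pools, and single mice cannot be seen. Neither the mouse strain nor the structure of the knockout allele is stated in the sources.

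Ribosome biogenesis begins in the nucleolus, where RNA polymerase I transcribes the ribosomal DNA into a long precursor RNA. Small nucleolar ribonucleoproteins (snoRNPs) guide the chemical modification of that precursor, and the small subunit processome folds and cuts it to release the part of the 40S subunit. Other factors assemble the 60S subunit, and both subunits mature further on the way to the cytoplasm. The pathway is a major consumer of energy in a growing cell, and many of its genes are known targets of the transcription factor MYC, which binds the E-box CACGTG. Bone-forming cells secrete large amounts of collagen and other matrix proteins, so they depend on a high capacity for protein synthesis.

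The promoters of the 4 genes with the smallest p for ethanol in WT are shown first, with that of Polr1c, which was chosen after its values were seen because its difference had the other sign. Each sequence runs from 250 bases before to 50 bases after the start of the RefSeq gene on GRCm38.p6, 5′ to 3′ on the gene's own strand, and capitals mark the E-box CACGTG. The windows lie at chr11:72441077-72441376 (plus strand) for Mybbp1a, chr10:88826765-88827064 (minus strand) for Utp20, chr10:13193088-13193387 (minus strand) for Ltv1, chrX:75095604-75095903 (plus strand) for Dkc1 and chr17:46247996-46248295 (minus strand) for Polr1c.
Mybbp1a: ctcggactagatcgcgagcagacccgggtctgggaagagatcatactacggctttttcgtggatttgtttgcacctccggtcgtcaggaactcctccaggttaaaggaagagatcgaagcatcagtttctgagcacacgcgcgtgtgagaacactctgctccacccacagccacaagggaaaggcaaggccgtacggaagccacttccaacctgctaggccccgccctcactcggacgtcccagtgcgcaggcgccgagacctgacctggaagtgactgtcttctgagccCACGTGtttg
Utp20: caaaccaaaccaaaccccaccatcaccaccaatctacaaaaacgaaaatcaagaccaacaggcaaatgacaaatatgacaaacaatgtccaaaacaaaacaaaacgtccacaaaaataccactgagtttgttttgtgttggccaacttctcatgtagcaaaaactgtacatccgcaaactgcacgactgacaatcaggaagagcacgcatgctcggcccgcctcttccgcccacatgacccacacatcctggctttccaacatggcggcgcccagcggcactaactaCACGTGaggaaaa
Ltv1: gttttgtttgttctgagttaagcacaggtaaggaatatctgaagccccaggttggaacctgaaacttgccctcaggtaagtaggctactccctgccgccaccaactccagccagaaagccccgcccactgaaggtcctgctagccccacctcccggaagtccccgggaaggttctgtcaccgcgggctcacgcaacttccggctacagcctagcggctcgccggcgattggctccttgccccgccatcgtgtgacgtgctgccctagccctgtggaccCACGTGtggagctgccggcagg
Dkc1: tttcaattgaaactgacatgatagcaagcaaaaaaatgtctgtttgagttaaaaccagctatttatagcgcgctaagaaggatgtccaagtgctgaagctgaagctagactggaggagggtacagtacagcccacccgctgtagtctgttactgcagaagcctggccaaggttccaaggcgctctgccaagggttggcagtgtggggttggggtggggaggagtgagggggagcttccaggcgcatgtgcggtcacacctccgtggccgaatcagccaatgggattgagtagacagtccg
Polr1c: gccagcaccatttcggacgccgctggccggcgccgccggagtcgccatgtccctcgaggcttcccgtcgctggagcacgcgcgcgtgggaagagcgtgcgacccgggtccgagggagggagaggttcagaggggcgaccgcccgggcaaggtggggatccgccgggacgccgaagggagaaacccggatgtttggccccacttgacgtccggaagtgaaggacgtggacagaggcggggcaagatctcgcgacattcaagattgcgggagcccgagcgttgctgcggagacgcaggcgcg

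The first base of the E-box stood 40 bases after the start site in Mybbp1a, 37 in Utp20 and 28 in Ltv1, while Dkc1 and Polr1c had no CACGTG in this window. RefSeq held 34 windows for 31 of the 36 genes; Bop1, Fbl, Npm1, Rrp12 and Rrs1 had no entry. CACGTG, which reads the same on both strands, was present in 9 of the 34 windows (26.5%), against 2349 of all 32851 mouse windows (7.15%). The other genes with it were Grwd1, Nop2, Pes1, Pno1, Tsr1 and Wdr43, and in 8 of the 9 its first base lay between 2 and 40 bases after the start site (in Nop2 it lay 60 bases before). The GC box GGGCGG, searched on both strands, was in 23 of the 34 windows (67.6%) and in 35.7% of all windows. Both backgrounds include windows of genes that were not tested here. Among tested genes with a window, 1349 had CACGTG and 10941 had none. A match describes letters in the window and not a bound site.

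Of the 36 genes, 7 (19.4%) also carry snoRNA genes within their own bounds on the same strand, against 257 of 21811 protein-coding genes in the count table (1.18%). These hosts were Nop56 with 5 snoRNA genes, Nop58 with 4, Wdr43, Gnl3 and Ncl with 3 each, Tsr1 with 2 and Dkc1 with 1, or 21 in all. Exons of 19 of the 36 genes overlap another annotated gene, and the sources do not state whether counting used strand, so counts from these stretches cannot be assigned to either gene. The longest overlaps were 1240 bases of Tsr1 with Srr, 598 of Noc2l with Samd11 and 361 of Bysl with Ccnd3, all on opposite strands.

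Library totals ran from 19950222 to 28789308 counts, and levels are given in CPM, a gene's count relative to its scaled library total. Cat itself, as the check of the labels, had 69.0, 74.2 and 71.6 CPM in KO ethanol, 70.1, 65.9 and 66.5 CPM in KO PBS, 172, 165 and 144 CPM in WT ethanol and 128, 152 and 175 CPM in WT PBS, so every KO library was below every WT library. The libraries of WT differed widely in muscle content. Libraries 8 and 9 (WT PBS) and 12 (WT ethanol) held 27962, 31154 and 32437 CPM of 15 skeletal muscle genes, against 5319.9 to 6976 CPM in KO ethanol, 2678 to 10494 CPM in KO PBS, and as little as 1120 CPM in WT ethanol and 2717 CPM in WT PBS. The mean of WT ethanol was 16535 ± 15664 CPM (SD, n = 3), so its middle library also lay above every KO library. For the genes described here, counts of called genes and some single values are given with and without libraries 8, 9 and 12. The middle library of WT ethanol was left out only on its own. Counts of groups without overlap and the correlation of KO with WT are given with all libraries only. The same holds for the further lists, the E-box groups and the summed levels.

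After binge ethanol, transcripts of the ribosome biogenesis machinery were lower in the femoral shaft in both genotypes. Averaged over KO and WT, 24 of the 36 genes passed the test as lower and none as higher, with a median log2 difference of −0.30 against −0.0088 over all tested genes (edgeR quasi-likelihood test, adjusted p under 0.05 over all genes). The share of all genes called lower was 5.81%, and the share called higher was 5.02%. The falls were moderate, and the genes called were unevenly spread over the roles: the snoRNP proteins (7 of 7), small subunit and 40S assembly (8 of 12), 60S assembly (5 of 8), other nucleolar proteins (3 of 5) and RNA polymerase I (1 of 4). In RNA polymerase I only Polr1b was called, and Polr1c had the other sign. Among the genes called, log2 differences ran from −0.23 in Fbl to −0.49 in Utp20: Fbl fell by 14.5% and Utp20 fell by 28.7%. In bulk tissue, fewer cells of a type and less RNA per cell cannot be told apart.

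The averaged count was repeated without single libraries. Leaving out each library in turn left 17 to 26 genes called lower, where 3.11% to 6.33% of all genes were, and 17 of the 24 were called in each of the 12 fits. Without the muscle-rich libraries 8 and 9 the count was 12, where 2.73% of all genes were called lower, and without libraries 8, 9 and 12 it was 17, where 4.23% were. In both fits without libraries 8 and 9, the PBS side of WT rested on library 7 alone. Of the genes not called, Pno1 and Nop14 passed without library 7, Noc4l and Pes1 without library 10, and Rrs1 without library 7, 8 or 11.

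**Figure D1:**
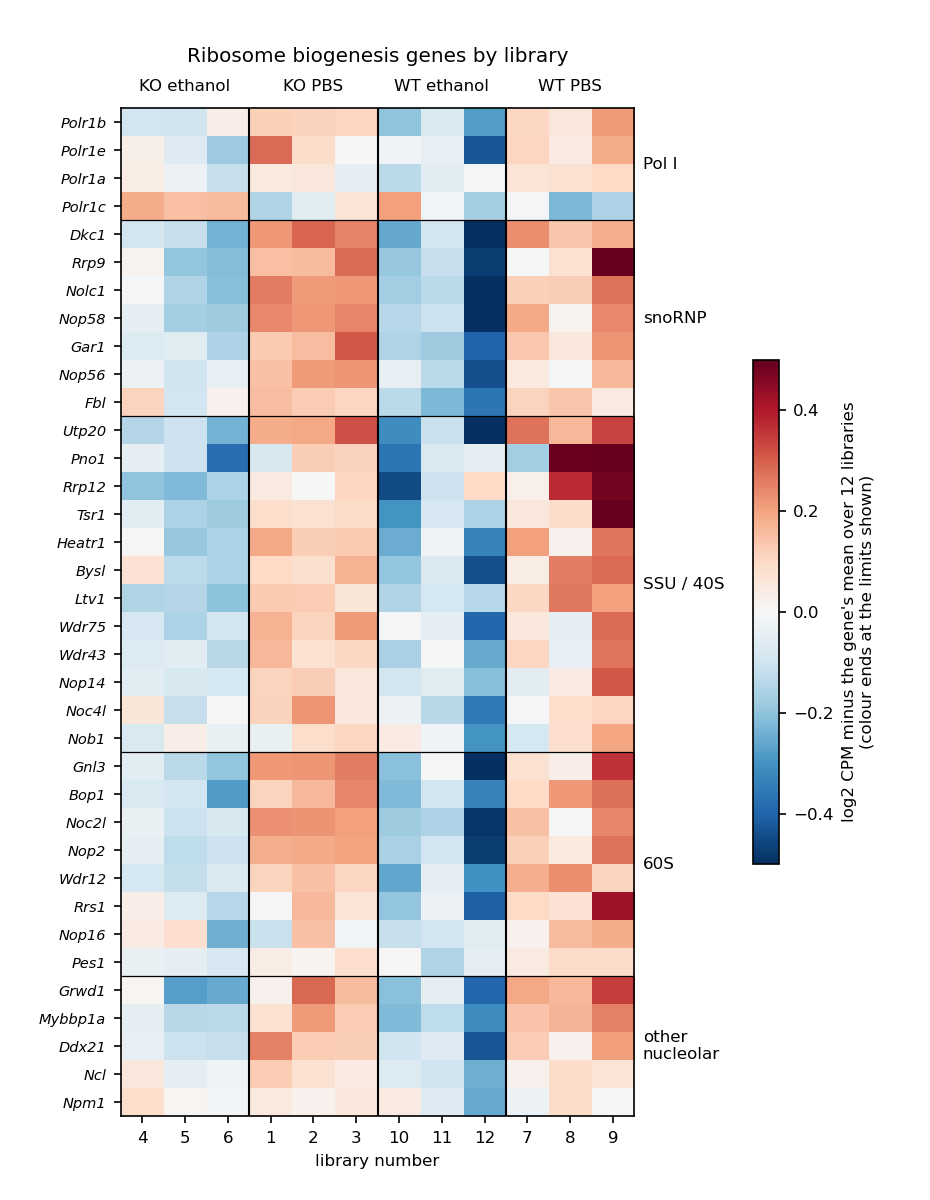
Each cell gives the log2 CPM of 1 gene in 1 library minus that gene's mean over the 12 libraries, with genes in rows by role and libraries in columns by group (KO ethanol, KO PBS, WT ethanol, WT PBS). Blue prevails in both ethanol groups and red in both PBS groups, most of all in the snoRNP rows, while Polr1c shows the other order; colours end at the limits of the scale.

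In every library the 36 genes together made up 0.194% to 0.279% of counts. Their summed level was 2372 to 2528 CPM in KO ethanol against 2716 to 2738 CPM in KO PBS, and 2033 to 2357 CPM in WT ethanol against 2625 to 2809 CPM in WT PBS. The ethanol and PBS libraries did not overlap in either genotype. KO PBS was the tightest group, with a mean of 2726 ± 11.3 CPM (SD, n = 3), and WT ethanol the widest, with 2246 ± 185 CPM (n = 3), library 12 being its lowest.

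Levels within the module spanned a wide range when set per length of exon. Npm1, which encodes the abundant nucleolar chaperone nucleophosmin, had 158 CPM per kb in KO ethanol, 159 in KO PBS, 145 in WT ethanol and 157 in WT PBS. Next came Ncl, which encodes nucleolin, with 55.6, 59.1, 50.8 and 58.1 CPM per kb in the same 4 groups. The third was Noc2l with 27.4, 33.6, 24.0 and 31.6 CPM per kb, and the lowest was Wdr12 with 2.10, 2.44, 1.95 and 2.54. Length was the union of all annotated exons, which for Wdr12 came to 11955 bases. Npm1 and Ncl thus stood far above the rest in every group.

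Of the 4 RNA polymerase I subunits, 1 fell on average. The summed level of the 4 was 116 to 121 CPM in KO ethanol against 119 to 122 CPM in KO PBS, with overlap. In WT it was 107 to 114 CPM in WT ethanol against 118 to 124 CPM in WT PBS, without overlap. Polr1b, the second largest subunit of the enzyme, fell by 15.2% on average, a log2 difference of −0.24 (SE 0.052, adjusted p = 0.0149); its level was 24.4 to 26.8 CPM in KO ethanol against 28.2 to 28.4 CPM in KO PBS, and 21.5 to 24.8 CPM in WT ethanol against 27.2 to 30.3 CPM in WT PBS. Polr1a, the largest subunit, and Polr1e, a subunit specific to polymerase I, did not pass, with averaged log2 differences of −0.10 (adjusted p = 0.146) and −0.23 (adjusted p = 0.11).

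Polr1c was the only one of the 36 whose log2 difference was above 0 in both genotypes. Its protein is shared by RNA polymerases I and III, and the gene lies at chr17:46243920-46248054 (minus strand, GRCm38). It had 31.9, 31.1 and 31.3 CPM in KO ethanol against 25.3, 27.0 and 29.4 CPM in KO PBS, which do not overlap (as for 16.3% of all genes in that direction), and 32.4, 27.7 and 24.9 CPM in WT ethanol against 27.9, 24.0 and 25.2 CPM in WT PBS, which do. The log2 differences were 0.21 (SE 0.10, adjusted p = 0.325) in KO, 0.14 (SE 0.10, adjusted p = 0.524) in WT and 0.17 (SE 0.07, adjusted p = 0.134) on average, so none passed. Without library 12 the averaged value did pass, at an adjusted p of 0.0497.

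All 7 snoRNP genes fell in the averaged comparison. Box C/D snoRNPs carry out 2′-O-methylation of ribosomal RNA through fibrillarin (Fbl), with Nop56 and Nop58 as core partners. Box H/ACA snoRNPs convert uridine to pseudouridine through dyskerin (Dkc1), with Gar1 as a core partner. Rrp9 belongs to the U3 snoRNP, which is needed for cleavage of the precursor, and Nolc1 is a chaperone of snoRNP assembly.

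Dkc1 (ENSMUSG00000031403, chrX:75095854-75109777, plus strand) was called in both genotypes. It had 57.7, 56.7 and 52.3 CPM in KO ethanol against 71.4, 75.3 and 73.1 CPM in KO PBS, and 51.5, 57.8 and 43.0 CPM in WT ethanol against 72.3, 67.8 and 69.7 CPM in WT PBS. All 6 ethanol libraries were below all 6 PBS libraries. Dkc1 fell by 24.2% in KO, with a log2 difference of −0.40 (SE 0.089, adjusted p = 0.046), and by 27.4% in WT, with −0.46 (SE 0.09, adjusted p = 0.0379). The averaged value was −0.43 (SE 0.063, adjusted p = 0.00246). Both within-genotype calls were lost when single libraries were left out: the KO call without any 1 of libraries 1 to 10 (adjusted p up to 0.186) and the WT call without any 1 of libraries 1 to 5, 7 to 10 and 12 (up to 0.0935).

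The other snoRNP genes followed at similar size. Averaged log2 differences were −0.40 (adjusted p = 0.0253) for Rrp9, −0.39 (adjusted p = 0.00512) for Nolc1, −0.38 (adjusted p = 0.00613) for Nop58 and −0.34 (adjusted p = 0.00556) for Gar1. Nop56 was at −0.26 (adjusted p = 0.0239). The libraries of ethanol and PBS did not overlap within either genotype for Nop56, Nop58, Dkc1, Gar1, Rrp9 and Nolc1. Rrp9 and Nop56 lost their averaged call without any 1 of libraries 2, 3, 5 and 6, with adjusted p of at most 0.0697 and 0.0649.

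Fbl had the smallest averaged difference of the snoRNP genes. It had 82.3, 71.3 and 77.3 CPM in KO ethanol against 84.8, 83.3 and 82.1 CPM in KO PBS, which overlap by 1 library, and 69.5, 65.2 and 59.4 CPM in WT ethanol against 82.4, 83.9 and 78.8 CPM in WT PBS, which do not overlap. On the log2 scale ethanol over PBS was −0.12 (SE 0.069, adjusted p = 0.458) in KO, −0.34 (SE 0.069, adjusted p = 0.0422) in WT and −0.23 (SE 0.049, adjusted p = 0.0142) on average. The WT call was lost in each of the 12 fits that left out 1 library, with adjusted p between 0.052 and 0.109.

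**Figure D2:**
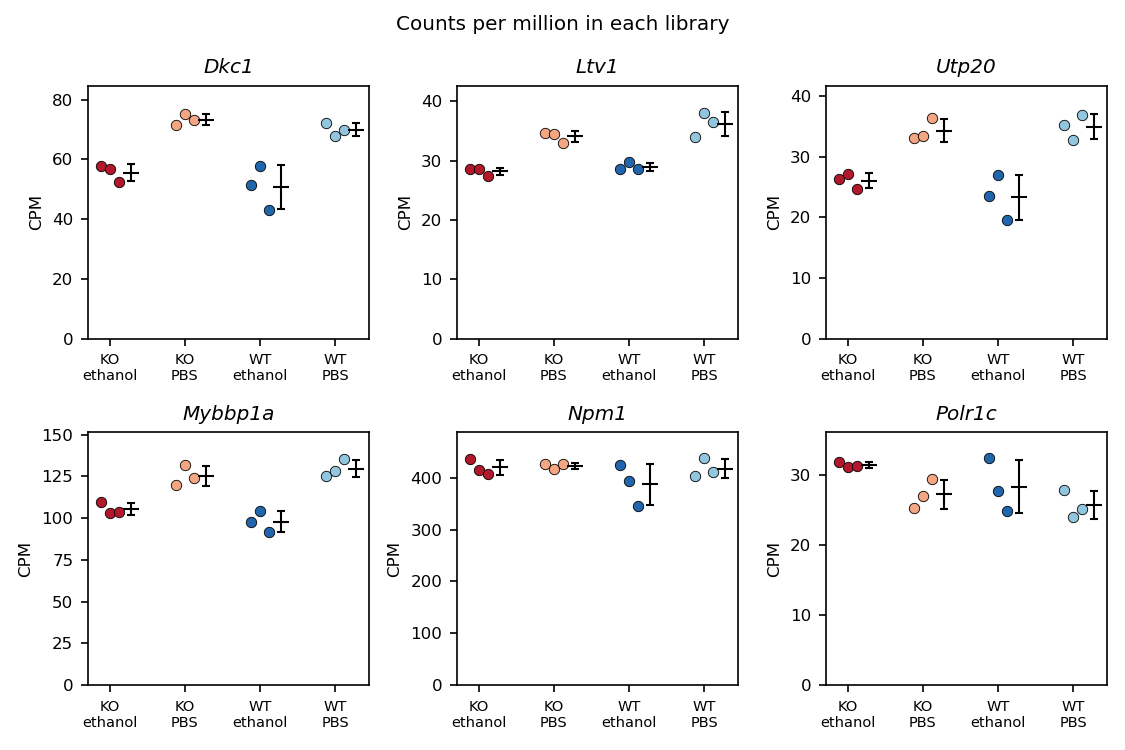
CPM of 6 genes in each library (points), with the group mean and SD (bars), for KO ethanol, KO PBS, WT ethanol and WT PBS, 3 libraries each. Dkc1, Ltv1, Utp20 and Mybbp1a are lower in every ethanol library than in every PBS library, Npm1 shows no separation, and Polr1c is higher in KO ethanol than in KO PBS.

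Of the 12 genes for the small subunit processome and 40S assembly, 8 fell on average and all 12 had log2 differences below 0. Utp20 is a very large scaffold protein of the processome, and the gene (ENSMUSG00000004356, chr10:88746607-88826804, minus strand) showed the largest averaged difference of the 36. It had 26.3, 27.1 and 24.7 CPM in KO ethanol against 33.1, 33.3 and 36.4 CPM in KO PBS, and 23.5, 27.0 and 19.5 CPM in WT ethanol against 35.2, 32.7 and 36.8 CPM in WT PBS. No ethanol library reached the lowest PBS library. Utp20 fell by 33.2% in WT, a log2 difference of −0.58 (SE 0.10, adjusted p = 0.0298), and was at −0.40 (SE 0.10, adjusted p = 0.0729) in KO, where it did not pass. The averaged value was −0.49 (SE 0.073, adjusted p = 0.0027), and the WT call was lost without any 1 of libraries 1 to 4 and 8 to 10 (adjusted p up to 0.0847).

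Ltv1, which in yeast is needed for assembly of the head of the 40S subunit and for its export, lies at chr10:13178140-13193168 on the minus strand. It had 28.5, 28.6 and 27.4 CPM in KO ethanol against 34.7, 34.5 and 33.0 CPM in KO PBS, and 28.5, 29.8 and 28.6 CPM in WT ethanol against 34.0, 38.0 and 36.4 CPM in WT PBS. Its 6 ethanol libraries were all below its 6 PBS libraries. It fell in both genotypes, with log2 differences of −0.27 (SE 0.061, adjusted p = 0.0457) in KO and −0.32 (SE 0.062, adjusted p = 0.0371) in WT, and −0.30 (SE 0.043, adjusted p = 0.00246) on average. The KO call was lost without any 1 of libraries 1 to 6 and 9 to 11 (adjusted p up to 0.18) and the WT call without any 1 of libraries 1 to 5 and 8 to 12 (up to 0.101).

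Among the remaining processome scaffolds, Heatr1 fell by 19.5% (log2 −0.31 (adjusted p = 0.0122)), and Wdr75 and Wdr43, which join the early precursor with it, were at −0.26 (adjusted p = 0.0471) and −0.23 (adjusted p = 0.0294). Nop14 and Noc4l, which bind each other in yeast, did not pass, at −0.20 (adjusted p = 0.0626) and −0.19 (adjusted p = 0.0815). Of the factors that finish the 40S subunit, Tsr1 was at −0.32 (adjusted p = 0.027), Bysl at −0.31 (adjusted p = 0.0238) and Rrp12 at −0.34 (adjusted p = 0.0422). Nob1, the nuclease that makes the final cut at the end of 18S ribosomal RNA, and its partner Pno1 did not pass, at −0.12 (adjusted p = 0.327) and −0.35 (adjusted p = 0.091). The calls of Wdr43, Wdr75, Rrp12, Bysl and Tsr1 were the least firm of the 24. They held in 4, 2, 2, 6 and 6 of the 12 fits that left out a library, with adjusted p of at most 0.0742, 0.112, 0.100, 0.0667 and 0.0657.

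The WT PBS libraries of Pno1 and Rrp12 spread widely. Pno1 had 18.5, 22.6 and 23.1 CPM in WT ethanol against 21.1, 33.6 and 34.5 CPM in WT PBS, so that libraries 8 and 9, the muscle-rich ones, stood well above library 7. Rrp12 had 15.5, 19.8 and 22.8 CPM in WT ethanol against 21.6, 27.5 and 29.6 CPM in WT PBS, with library 7 again the lowest of the PBS set. Every KO library held less muscle transcript than libraries 8 and 9, though most held more than library 7. In KO, Rrp12 had 18.5, 18.2 and 19.0 CPM in KO ethanol against 21.9, 21.2 and 22.9 CPM in KO PBS. Pno1 had 23.1, 22.2 and 18.3 CPM in KO ethanol against 22.5, 25.9 and 25.8 CPM in KO PBS. The Rrp12 groups did not overlap in KO, while those of Pno1 did.

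In 60S assembly, 5 of 8 genes fell on average and all 8 had log2 differences below 0. Bop1 and Wdr12, which form the PeBoW complex with Pes1, fell by 22.5% and 18.5%, with log2 differences of −0.37 (adjusted p = 0.00366) and −0.30 (adjusted p = 0.0058). Both were also called in WT, at −0.41 (adjusted p = 0.0403) and −0.38 (adjusted p = 0.039), and not in KO, at −0.32 (adjusted p = 0.0702) and −0.22 (adjusted p = 0.162). The WT calls were lost without any 1 of libraries 1 to 5 and 8 to 12 for Bop1 (adjusted p up to 0.123), and without any 1 of libraries 1 to 5, 7 to 10 and 12 for Wdr12 (up to 0.107). Pes1, the other partner, did not pass, at −0.12 (adjusted p = 0.0602), although its ethanol libraries (62.1 to 64.3 CPM in KO, 59.3 to 66.2 CPM in WT) lay below all of its PBS libraries (66.6 to 69.9 CPM in KO, 68.0 to 70.4 CPM in WT).

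Noc2l, a factor of early 60S particles, fell by 21.3% on average, at −0.35 (adjusted p = 0.00593). It had 80.7, 76.7 and 78.4 CPM in KO ethanol against 97.1, 96.7 and 95.4 CPM in KO PBS, and 73.2, 74.3 and 59.0 CPM in WT ethanol against 91.7, 82.3 and 98.0 CPM in WT PBS. Nop2, an RNA methyltransferase of the large subunit, was at −0.33 (adjusted p = 0.00905), and Gnl3, which encodes the GTPase nucleostemin of stem and dividing cells, at −0.38 (adjusted p = 0.0179). Rrs1, which in yeast helps bring 5S ribosomal RNA into the subunit, and Nop16 did not pass, at −0.27 (adjusted p = 0.051) and −0.13 (adjusted p = 0.274).

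Of the other nucleolar genes, Mybbp1a had the smallest p of the 36, both in WT and on average. Its product, a Myb-binding protein of the nucleolus, takes part in ribosomal RNA transcription and processing, and the gene lies at chr11:72441355-72451768 on the plus strand. Mybbp1a had 110.0, 103 and 103 CPM in KO ethanol against 119.9, 132 and 124 CPM in KO PBS, and 97.5, 104 and 91.7 CPM in WT ethanol against 125, 128 and 135 CPM in WT PBS. Every ethanol library was below every PBS library. It fell in WT, with −0.41 (SE 0.064, adjusted p = 0.0227), and on average, with −0.33 (SE 0.045, adjusted p = 0.00181); in KO it was at −0.25 (SE 0.064, adjusted p = 0.0714) and did not pass. The WT call was lost without any 1 of libraries 8, 9 and 10 (adjusted p up to 0.0629).

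Grwd1, a chaperone that binds ribosomal protein L3 and histones, and Ddx21, an RNA helicase that links polymerase I transcription to processing, fell on average at −0.39 (adjusted p = 0.0141) and −0.28 (adjusted p = 0.0173). The abundant pair did not pass. Ncl had 551 to 591 CPM in KO ethanol against 585 to 620.3 CPM in KO PBS, and 480.0 to 542 CPM in WT ethanol against 576 to 605 CPM in WT PBS, and its averaged log2 value was −0.14 (adjusted p = 0.0635). Npm1 had 437, 414 and 408 CPM in KO ethanol against 426, 417 and 427 CPM in KO PBS, and 424, 393 and 345 CPM in WT ethanol against 403, 438 and 411 CPM in WT PBS. Its groups overlapped in both genotypes, and the averaged log2 difference was −0.06 (SE 0.052, adjusted p = 0.522).

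Within each genotype, the same direction was seen with fewer calls. In KO, 2 genes (Dkc1 and Ltv1) were called lower and none higher, where 0.903% of all genes were called lower and 0.964% higher. In WT, 7 genes were called lower (Mybbp1a, Utp20, Ltv1, Dkc1, Wdr12, Bop1 and Fbl) and none higher, where 0.705% of all genes were called lower and 0.556% higher. The median log2 difference of the 36 was −0.23 in KO and −0.37 in WT, against 0.00014 and −0.018 over all genes. At an unadjusted p under 0.05, 20 genes were lower in KO, where 8.16% of all genes were lower and 8.25% higher, and 31 were lower in WT, where 8.98% were lower and 7.03% higher. None of the 36 was higher in either at that threshold.

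These within-genotype counts moved with the libraries included, and the counts over all genes moved with them. In KO the count was 0 without any 1 of libraries 1 to 6, 9 and 10, 1 without any 1 of libraries 7, 8 and 11, 12 without library 12, and 20 in a fit of the 6 KO libraries alone. The share of all genes called lower in KO was 0.147% to 1.69% without single libraries, the highest being without library 12, and 4.58% in the fit of KO alone. In WT it was 0 without library 8, 9 or 10, 1 without any 1 of libraries 1 to 4, 2 without library 5 or 12, 4 without library 11, 6 without library 6 or 7, and 0 in a fit of the 6 WT libraries alone. The share of all genes called lower in WT was 0.0971% to 1.21% without single libraries and 0.0058% in the fit of WT alone.

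**Figure D3:**
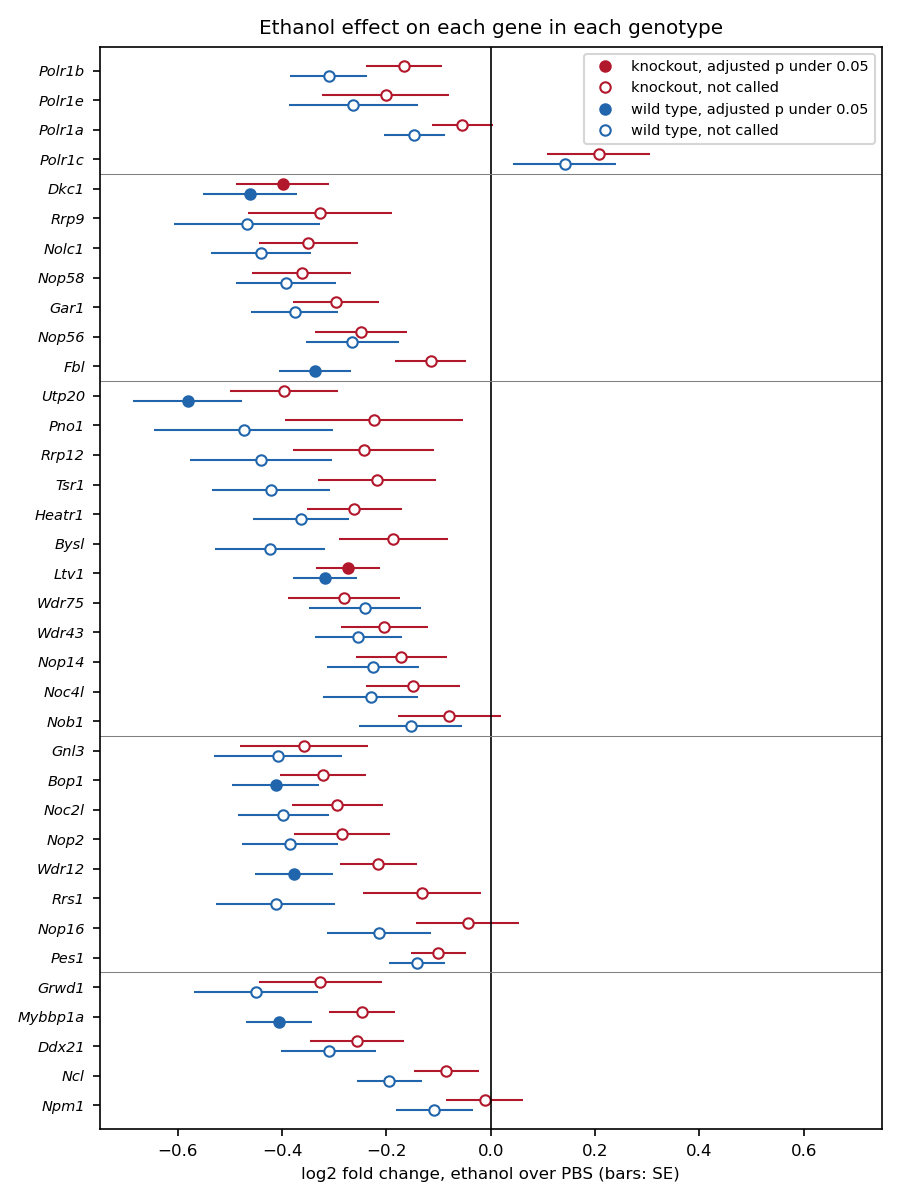
Log2 fold change of ethanol over PBS for each of the 36 genes in KO (red, upper mark) and WT (blue, lower mark), with bars for the SE and filled marks for an adjusted p under 0.05. Lines separate, from the top, RNA polymerase I, snoRNP, small subunit and 40S, 60S and other nucleolar genes; 35 of the 36 lie left of 0 in both genotypes and Polr1c lies right of it in both.

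The separation of the libraries was also counted without a model. In KO, 25 of the 36 genes had all ethanol libraries below all PBS libraries, against 16% of all genes, and in WT this held for 29, against 9.06%. For 22 genes it held in both genotypes, where 5.46% of all genes did so. For 19 genes, all 6 ethanol libraries lay below all 6 PBS libraries, against 3.83% of all genes. A log2 difference below 0 in both genotypes was seen for 35 of the 36 and for 38.5% of all genes.

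The sizes of the ethanol difference in KO and in WT, which come from different libraries, went together across the 36 genes (Pearson r 0.854, Spearman rho 0.73, n = 36 genes). Over all 18161 tested genes, r was 0.486 and rho 0.558. Genes are not independent replicates, since all points rest on the same 12 libraries, and Polr1c, Npm1 and Utp20 lie at the ends.

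Whether ethanol acted differently in the absence of catalase was tested as an interaction, the ethanol difference in KO minus that in WT. The value was above 0 for 35 of the 36 genes, which for genes below 0 means a smaller difference in KO, with a median of 0.094 against 0.021 over all genes. None passed in either direction by edgeR, where 0% of all genes did, and none passed by DESeq2 or limma-voom; Fbl alone had an unadjusted p under 0.05, with a value above 0, as for 0.92% of all genes, while 1.06% had one with a value below 0. Fbl was at 0.22 (SE 0.10, adjusted p = 1.0) and Mybbp1a at 0.16 (SE 0.09, adjusted p = 1.0). Without library 12 the median of the 36 in WT was −0.27, and without library 9 it was −0.29.

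KO and WT were then compared under each gavage. Under ethanol no gene passed in either direction by edgeR, DESeq2 or limma-voom, where 0% of all genes were called higher and 0.011% lower, and at an unadjusted p under 0.05 there were 2 genes, Fbl and Noc2l, both higher in KO. At that threshold 4.16% of all genes were higher in KO and 1.62% lower, so 2 of 36 is near the background. Fbl had 71.3 to 82.3 CPM in KO ethanol against 59.4 to 69.5 CPM in WT ethanol, and Noc2l had 76.7 to 80.7 CPM in KO ethanol against 59.0 to 74.3 CPM in WT ethanol, so neither pair of groups overlapped. With Ncl, 3 genes were higher in KO without overlap, against 7.12% of all genes. Their log2 differences were 0.25 (SE 0.069, adjusted p = 0.82) and 0.19 (SE 0.087, adjusted p = 0.82). Of the 36 genes, 33 had a value above 0, with a median of 0.11 against −0.0043 over all genes.

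Under PBS, too, no gene passed by edgeR (0% of all genes called higher and 0.011% lower), DESeq2 or limma-voom, none had an unadjusted p under 0.05 (3.3% of all genes higher and 4.14% lower), and the median was −0.0097, with 16 of 36 above 0. The smallest p values were those of Rrp12, at −0.26 (SE 0.13, adjusted p = 0.605), and Pno1, at −0.26 (SE 0.17, adjusted p = 0.631). Both turned sign without libraries 8 and 9, to 0.028 for Rrp12 and 0.23 for Pno1. Averaged over both gavages no gene passed either (0% of all genes called higher and 0.011% lower), and the smallest p values were those of Fbl, at 0.14 (SE 0.049, adjusted p = 0.331), and Noc2l, at 0.14 (SE 0.061, adjusted p = 0.343).

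The wider pathway was read from 6 further lists of ribosome biogenesis genes, 137 tested genes in all. On average 44 of them were called lower and 1 higher, where 5.81% and 5.02% of all genes were. Of the 137, 120 had log2 differences below 0, and the median was −0.15. In WT 12 were called lower, with a median of −0.17, where 0.705% of all genes were called lower. In KO 2 were, with a median of −0.10, where 0.903% of all genes were, so the KO count is near the background. Their median was on the same side of 0 as that of the 36 genes and smaller in size. Because these lists were also chosen with earlier results of these data known, they are no independent check of the 36 genes.

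Within these lists, 20 of 54 other factors of 60S assembly were called lower on average, where 5.81% of all genes were. Mdn1, the giant AAA ATPase that strips assembly factors from the particle, was at −0.46 (adjusted p = 0.00169), Rrp15 at −0.40 (adjusted p = 0.00739) and Ppan at −0.37 (adjusted p = 0.0168). Mdn1 passed in both genotypes, at −0.43 (adjusted p = 0.0325) in KO and −0.49 (adjusted p = 0.03) in WT, and Ddx56 and Nifk passed in WT, at −0.45 (adjusted p = 0.0227) and −0.39 (adjusted p = 0.0126). Of other small subunit processome genes, 15 of 38 were lower. Nat10, the acetyltransferase of 18S ribosomal RNA, was at −0.43 (adjusted p = 0.00381), Nol10 at −0.36 (adjusted p = 0.00312) and Pwp2 at −0.34 (adjusted p = 0.0216). In WT, Nat10, Nol10 and Wdr36 passed at −0.47 (adjusted p = 0.0468), −0.44 (adjusted p = 0.0298) and −0.35 (adjusted p = 0.0479), and in KO Mphosph10 passed at −0.28 (adjusted p = 0.0467). Utp3, named after its values were seen, was the 1 gene called higher, at 0.24 (adjusted p = 0.00863).

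The smaller lists held fewer calls, to be set against the same 5.81% of all genes. Of 9 snoRNP partners 3 were lower: Nhp2, a core H/ACA protein, at −0.23 (adjusted p = 0.0441), Snu13, which binds box C/D RNA, at −0.19 (adjusted p = 0.0225), and the ATPase Ruvbl2 at −0.19 (adjusted p = 0.0414). Of 19 genes of the RNA exosome and nucleases of the precursor 3 were lower, namely Pop1, a protein of RNases MRP and P, at −0.47 (adjusted p = 0.00254), Exosc10 at −0.22 (adjusted p = 0.0195) and Exosc5 at −0.20 (adjusted p = 0.0313); Pop1 also passed in WT, at −0.51 (adjusted p = 0.0361). Of 6 late 40S factors 2 were lower, Tsr2 at −0.23 (adjusted p = 0.0184) and Riok1 at −0.17 (adjusted p = 0.0388). Of 11 other polymerase I genes only Ubtf, the factor that keeps ribosomal DNA open for transcription, was called, at −0.24 (adjusted p = 0.0303).

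**Figure D4:**
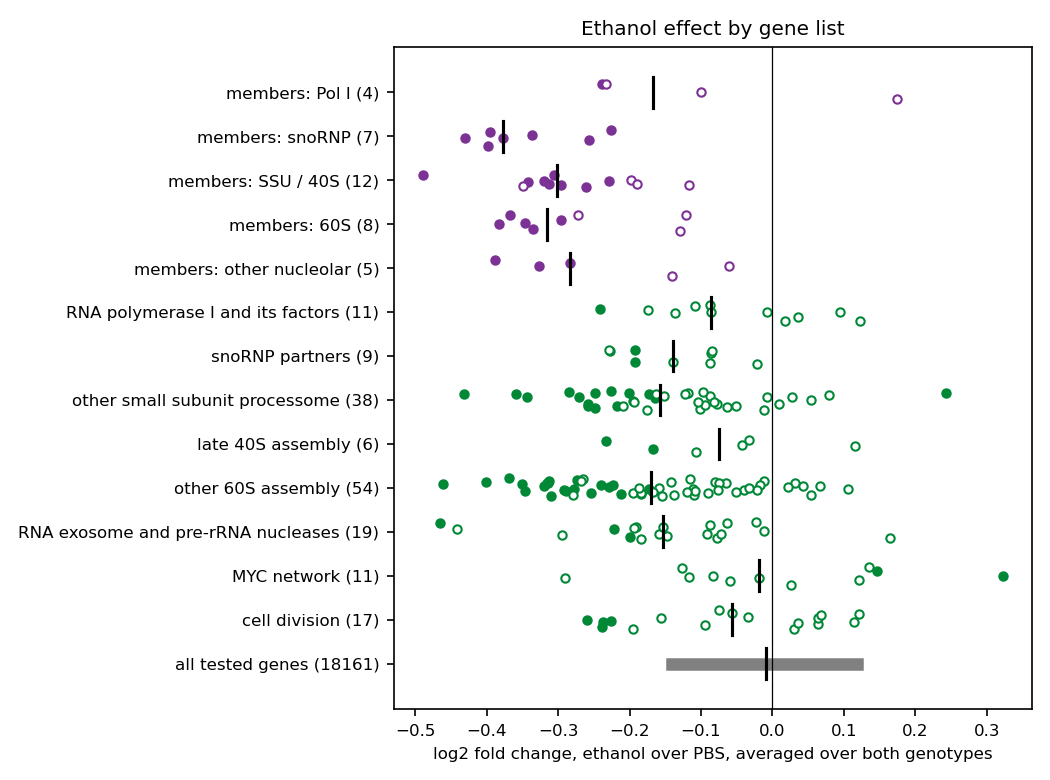
Log2 fold change of ethanol over PBS averaged over both genotypes for the 36 genes by role (purple) and for further lists (green), with the number of tested genes in brackets, filled points for an adjusted p under 0.05 and black bars for medians. The grey bar spans the middle 50% of all 18161 tested genes; the snoRNP row has the lowest median of the rows, −0.38.

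Regulators of the pathway were read from 2 lists. Myc had 53.6, 46.6 and 54.7 CPM in KO ethanol against 50.2, 54.7 and 54.7 CPM in KO PBS, and 48.4, 51.2 and 40.1 CPM in WT ethanol against 50.8, 43.4 and 45.1 CPM in WT PBS. Its groups overlapped in both genotypes and its averaged log2 difference was −0.018 (SE 0.07, adjusted p = 0.901). Of 11 genes of the MYC network none was called lower and 2 were called higher, against 5.81% and 5.02% of all genes. These were Mxd1 at 0.32 (adjusted p = 0.014) and Mxi1 at 0.15 (adjusted p = 0.029), both partners of MAX that oppose MYC at E-boxes. The summed list was 991 to 1049 CPM in KO ethanol against 929 to 939 CPM in KO PBS, without overlap. In WT it was 979 to 1032 CPM against 871 to 981 CPM, with overlap. Of 13 p53 targets and genes of the nucleolar stress response 2 were called higher, against 5.02% of all genes. They were the sestrins Sesn2 at 0.51 (adjusted p = 0.00512) and Sesn1 at 0.27 (adjusted p = 0.0301), which restrain the growth kinase complex mTORC1. The summed list overlapped in both genotypes, at 1474 to 1530 CPM in KO ethanol against 1425 to 1528 CPM in KO PBS. In WT it was 1491 to 1568 CPM against 1405 to 1686 CPM. The part of either list in the result was not tested. Sesn2 also passed in KO, at 0.69 (adjusted p = 0.0201).

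The E-box in the promoters shown above was set beside the ethanol difference. The 9 genes with CACGTG had a median averaged log2 difference of −0.33 and 7 of them were called lower, and the 22 with a window and no CACGTG had −0.27 with 14 called lower. Over all tested genes with a window, the median was −0.026 with 9.04% called lower for 1349 genes with it, and −0.0030 with 5.93% called lower for 10941 genes without it. Utp20, with CACGTG, had the largest averaged difference of the 36, and Dkc1, with none, the second largest. Whether the E-box had a part in the difference was not tested.

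Transcripts of bone-forming cells were also lower after ethanol. The summed level of 10 osteoblast and osteocyte genes was 12521 to 28037 CPM in KO ethanol against 37156 to 44248 CPM in KO PBS, and 14702 to 25816 CPM in WT ethanol against 27714 to 33926 CPM in WT PBS, with no overlap in either genotype. All 10 had log2 differences below 0 in both genotypes, with medians of −0.80 in KO and −0.57 in WT. On average 4 were called lower (5.81% of all genes were), among them Alpl at −0.84 (adjusted p = 0.00952), Col1a1 at −0.81 (adjusted p = 0.0476) and Sp7 at −0.76 (adjusted p = 0.0268). None of the 10 was at 0 in any library, and the lowest count was 972, so the labelled bone tissue carried its defining markers throughout.

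With the level of this bone list as a covariate, added after the data were seen, 33 of the 36 genes had an averaged log2 difference below 0 with a median of −0.20, and none was called. No gene of all 18161 was called for ethanol under that model, in either genotype or on average. The list moved with the gavage, so the share of bone cells and the ethanol difference cannot be told apart here.

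Dividing cells were read from a list of markers of replication and mitosis. The summed level of 17 cell division genes was 4093 to 4579.9 CPM in KO ethanol against 4178 to 4694 CPM in KO PBS, and 3195 to 3997 CPM in WT ethanol against 3704 to 4195 CPM in WT PBS. Its groups overlapped in both genotypes. On average 4 of the 17 were called lower, against 5.81% of all genes, among them Mcm6 at −0.26 (adjusted p = 0.0138), Pcna at −0.24 (adjusted p = 0.0336) and Mcm5 at −0.24 (adjusted p = 0.019). With this list as a covariate, 24 of the 36 genes were called lower, where 7.41% of all genes were. All 17 had log2 values above 0 in KO against WT under ethanol, with a median of 0.24 against −0.0043 over all genes. With the list as a covariate the averaged KO difference of Noc2l was −0.0034, while that of Fbl stayed above 0. The part of dividing cells in the genotype difference was not tested.

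Muscle, osteoclast, erythroid, neutrophil and B cell lists were read as well, and no gene of them was at 0 in any library. None of 15 muscle genes was called after ethanol, and under a muscle covariate 28 of the 36 genes were called lower, where 8.12% of all genes were. Of 7 osteoclast genes 2 were called higher on average, against 5.02% of all genes. The summed level of the 7 was 2339 to 3185 CPM in WT ethanol against 1774 to 2094 CPM in WT PBS, without overlap. In KO it was 1845 to 2213 CPM in KO ethanol against 1626 to 1995 CPM in KO PBS, with overlap. None of the 9 erythroid, 10 neutrophil and 10 B cell genes was called. The neutrophil sum was 25227 to 28490 CPM in KO ethanol, 25189 to 26097 in KO PBS, 25320 to 40276 in WT ethanol and 23462 to 41871 in WT PBS. The erythroid sum was 17867 to 20332, 17929 to 20761, 10714 to 19803 and 11876 to 17080 CPM in the same groups. Transcripts of blood cells were thus plentiful in every library beside those of bone. The part of these cell types in the result was not tested beyond the covariates.

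**Figure D5:**
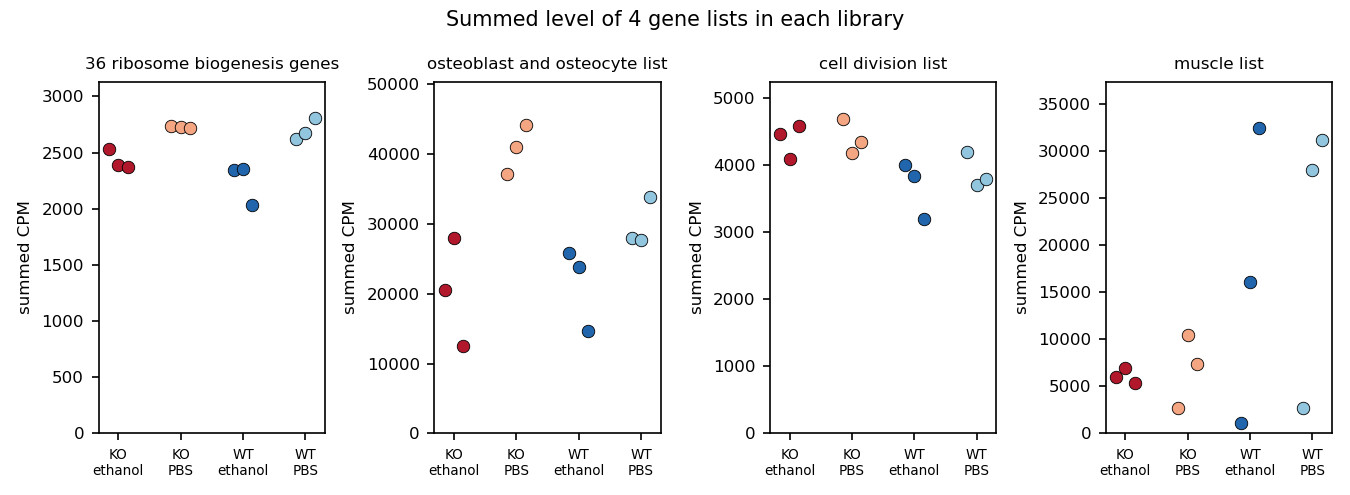
Summed CPM in each library for the 36 ribosome biogenesis genes, 10 osteoblast and osteocyte genes, 17 cell division genes and 15 muscle genes, by group (KO ethanol, KO PBS, WT ethanol, WT PBS). The first 2 panels separate ethanol from PBS in both genotypes, while cell division and muscle sums overlap.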

How the data were processed

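The authors deposited whole-number counts per Ensembl gene, and their other deposited table gives normalized signal, each count over a library constant, per the file headers and values; it served 1 alternative. Per the submitters' processing notes, reads passed through Trimmomatic 0.36, STAR 2.5.2b and featureCounts of Subread 1.5.2 on GRCm38; the sources state neither annotation release nor strandedness.

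The filter filterByExpr (10 counts, total 15) left 18161 genes, and TMM factors scaled the libraries. In R 4.3.3, edgeR 4.0.16 fitted a robust quasi-likelihood model with 1 coefficient per group to all 12 libraries, leaving 8 residual degrees of freedom at a dispersion of 0.0338. Contrasts were the ethanol difference (ethanol over PBS) in KO and in WT, the genotype difference (KO over WT) under each gavage, the interaction and both averages. P-values were adjusted by Benjamini-Hochberg over all tested genes, and called means an adjusted p under 0.05. The SE is the log2 difference divided by the root of F. The fit was tested on simulated data.

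The members and lists were chosen with earlier results of these data known. Values by library are given for up to 4 called genes per comparison by smallest p, or for the 2 with the smallest p where none was called; up to 3 called genes per further list were named by size. Alternatives were other factors and filters, DESeq2 1.42.0, limma 3.58.1 (voom, trend), fits of 2 groups, list covariates and libraries left out. The bone list covariate and leaving out libraries 8 and 9 were chosen after seeing the data. Coordinates, exon lengths and overlaps come from GENCODE M21 on GRCm38, and promoters from RefSeq on GRCm38.p6.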

Additional observations from a re-analysis of the deposited data

How the results depend on the processing

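The averaged count of 24 genes lower after ethanol was within 1.5 times of itself in 22 of 24 alternatives, DESeq2 giving 29 and single-library omission 17 to 26; it was 0 with the bone list as a covariate and 12 without libraries 8 and 9. Outside that covariate, 12 genes were called lower in all 23 remaining alternatives: Nop58, Dkc1, Gar1, Nolc1, Utp20, Heatr1, Ltv1, Bop1, Wdr12, Noc2l, Nop2 and Mybbp1a. The averaged count of genes higher, 0, became 1 (Polr1c) with the cell division list as a covariate, and was 0 to 1 with single libraries left out. The KO count of 2 was 1 with upper-quartile factors, 9 with DESeq2, 20 in a fit of only the 2 groups compared, 6 with the muscle covariate, 0 with the bone covariate, 15 without libraries 8, 9 and 12, 1 without libraries 8 and 9, and 0 to 12 with single libraries left out. The WT count of 7 was 3 with upper-quartile factors, 19 with DESeq2, 0 in a fit of only the 2 groups, 13 with the muscle covariate, 0 with the bone covariate, 0 without libraries 8, 9 and 12, 0 without libraries 8 and 9, and 0 to 6 with single libraries left out. Counts over all genes moved with these: the share called lower in KO was 2.96% with DESeq2, 4.58% in the fit of 2 groups and 3.29% without libraries 8, 9 and 12, and in WT 2.36%, 0.0058% and 0.131% under the same settings. With upper-quartile factors the share of all genes called lower was 0.864% in KO and 0.413% in WT. Under the muscle covariate it was 2.31% in KO and 1.5% in WT. In the averaged comparison DESeq2 called 7.92% of all genes lower, and 6.93% were called higher under the cell division covariate. Fits with fewer libraries or an added covariate have fewer residual degrees of freedom. Those without libraries 8 and 9 keep library 7 as the only WT PBS library. Other causes were not tested. The counts of genes differing by genotype or in the interaction were 0 in every alternative run. The PBS genotype difference turned sign without libraries 8, 9 and 12 for Rrp12 (0.024) and Pno1 (0.23), and without libraries 8 and 9 (0.028 and 0.23); that of Noc2l averaged over gavages was −0.0034 with the cell division covariate. No paired analysis was possible because the library numbers, 1 to 12, are not shared between groups.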
